A study of Arabidopsis thaliana with 16 samples.

Results

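The genes described here are 158 nuclear genes of Arabidopsis thaliana that were strongly lower than in wild-type Col in the EIN2-S645A line and were listed in neither of the other 2 RNA tables of the series. They were taken from the authors' deposited table of EIN2-S645A against Col, at a log2 fold of -2.5 or below, with plastid and mitochondrial genes left out. That table lists 7357 genes, 7273 of them nuclear, and 10057 genes are listed in at least 1 of the 3 tables. The members were thus chosen by their fold in that table and by their absence from the other tables, and both are given as a description, with no test.

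Ethylene is perceived by receptors that act through the kinase CTR1 on EIN2, a membrane protein whose carboxyl-terminal part is cut off and moves to the nucleus when ethylene is present. There it works with the transcription factors EIN3 and EIL1 and has been linked to histone acetylation at ethylene responsive genes. The S645A substitution replaces a serine that CTR1 phosphorylates with alanine and is known to let EIN2 act without ethylene.

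RNA was sequenced from 3 lines of whole, dark-grown seedlings, with 2 libraries per line, all after 4 h in air at an age of 3 days. The lines were EIN2-S645A, EIN2C-EIN3DB (by its name, the EIN2 carboxyl-terminal part joined to the EIN3 DNA binding domain) and EIN2C-EIN3DB-K245N (the fusion with a substitution in its EIN3 part), and all 3 carried the ein3-1 eil1-1 double mutation of EIN3 and EIL1. An EIN2 antibody was used for chromatin immunoprecipitation and sequencing (ChIP) of seedlings with EIN2C-EIN3DB in ein3-1 eil1-1 (2 libraries in 10 ppm ethylene for 4 h and 2 in air) and in wild-type Col-0 (1 library titled ethylene and 1 titled air, although the agent label of the library titled air says ethylene). Sample titles write the S645A line with EIN2, while it stands with the EIN2 carboxyl-terminal part in the series design and with another residue number in its genotype label, and the text follows the titles.

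The wild-type Col RNA libraries are not analysed here, and the sources used here do not say how they were treated. Untransformed ein3-1 eil1-1 seedlings are not analysed here either, so a fold over Col cannot tell the transgene apart from the double mutation. Nor do they name the promoter of each transgene, the number of independent transformants, or separate cultures behind the replicates. The tables hold 1 FPKM value per line (fragments scaled to transcript length and to the number of mapped fragments), which pools both libraries, so there is no spread between libraries for any RNA value and the RNA depth is unknown. Whole seedlings were used, so fewer cells of a type and less RNA per cell cannot be told apart. In the authors' deposited table EIN3 stood at log2 -3.97 and EIL1 at -2.93 in EIN2-S645A, and EIN2 was not listed. Among the markers of dark-grown seedlings, the authors' deposited table gives PORA 54.6 FPKM (log2 -3.16) and PORB 268 FPKM (log2 -1.91) in EIN2-S645A. Of 6 seed storage marker genes, 0 were lower and 2 were higher in EIN2-S645A.

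Of the 7273 nuclear genes listed, 3919 were lower in EIN2-S645A than in Col (53.9%). Of all listed nuclear genes, 627 were at a log2 fold of -2.5 or below (8.62%), and the 158 members were 25.2% of those and 2.17% of all listed nuclear genes. The other 469 were also listed in at least 1 fusion table. Being absent from a table means that the gene did not pass the authors' limits there (q-value below 0.05, 2-fold or larger change, and, by the tables' names, a minimum level of 1, although the line itself can be below 1), not that its level was that of Col. The members fell into 2 kinds. There were 81 listed at 0 in EIN2-S645A and 77 with a value above 0. All 84 plastid and mitochondrial genes of the table were listed at 0 as well, genes that every plant cell uses, so a listed 0 may be an estimate that was not made, and no fold is given for those 81.

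**Figure D1:**
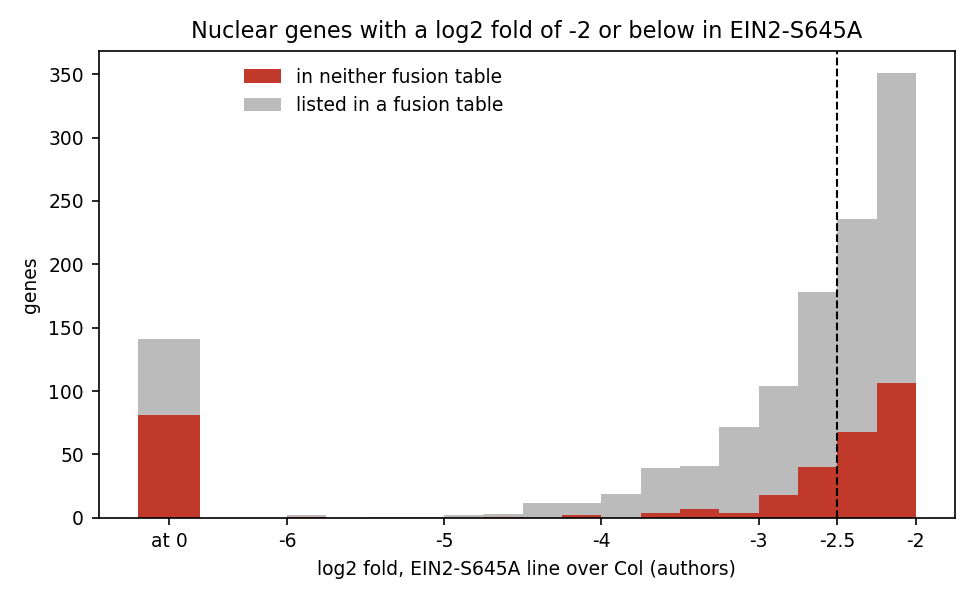
Number of nuclear genes (y axis) by log2 fold of the EIN2-S645A line over Col (x axis), for folds of -2 or below, with genes listed at 0 in the bar at the left. Red marks genes in neither fusion table and grey those listed in at least 1, stacked, and red to the left of the dashed line at -2.5 makes up the 158 members, 81 of them in the bar at 0.

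Among the 77 members with a value, the log2 fold ran between -5.97 and -2.502, with a median of -2.74. Most lay close to the limit. In the authors' deposited table, 58 were above -3, 15 between -4 and -3, and 4 at -4 or below. Their levels in the line were low, with a median of 0.833 FPKM and a range of 0.176 to 5.998 FPKM, and 42 of the 77 were under 1 FPKM. The 1612 other genes that were lower in EIN2-S645A and listed in neither fusion table had a median of 4.89 FPKM, and the 409 genes at -2.5 or below with a value and a listing in a fusion table had one of 1.47 FPKM. The authors' smallest possible p-value, 5e-05, was given to 25 of the 77, and 33 had a q-value over 0.01 in the authors' deposited table.

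**Figure D2:**
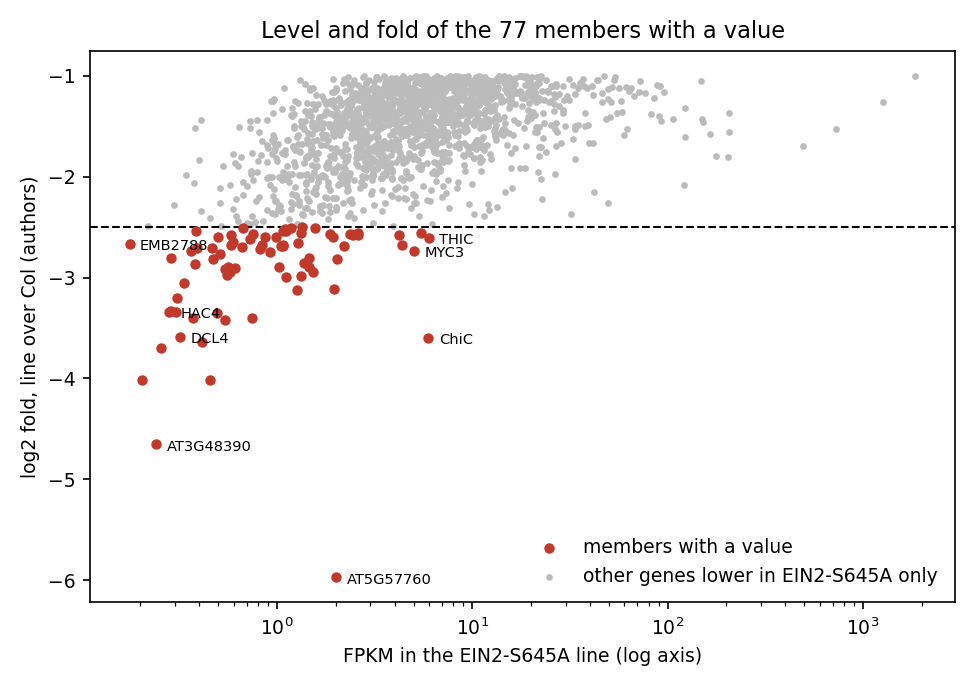
Each point is 1 gene, with its FPKM in the EIN2-S645A line on a log x axis and its log2 fold over Col on the y axis, both as the authors deposited them. Red points are the 77 members with a value and grey points the 1612 other genes lower in EIN2-S645A only. Members lie below the dashed line at -2.5, mostly under 1 FPKM, with ChiC, THIC and MYC3 among those at 5 FPKM or more.

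The lowest fold of all belonged to AT5G57760 (chromosome 5, 23400715 to 23403130, TAIR10), which had 2.02 FPKM at log2 -5.97 in the authors' deposited table (q = 0.0185). Its locus overlaps the gene AT5G57770, so their reads may be shared. AT3G48390 followed with 0.240 FPKM at log2 -4.65, then AT5G10120 with 0.453 FPKM at log2 -4.01 and AT3G21480 with 0.203 FPKM at log2 -4.01, in the authors' deposited table. None of these 4 has a symbol in the annotation table, and their q-values lay between 0.0185 and 0.0473, near the authors' limit. AT3G55160 stood at log2 -3.70 and AT2G24530 at -3.64 in the authors' deposited table. Next came ChiC (AT4G19810), a class V chitinase, an enzyme that cuts the fungal wall polymer chitin, with 5.96 FPKM at log2 -3.60 (q = 0.000224) in the authors' deposited table. The remaining members among the 12 lowest were DCL4 at log2 -3.59, AT1G69170 (SPL6, a transcription factor of the SBP domain family) at log2 -3.42, AT5G66790 at -3.40, AT2G36780 at -3.40 and AT5G50170 at -3.35 in the authors' deposited table.

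The member with the highest level was THIC (AT2G29630), an enzyme of thiamine synthesis, which had 5.998 FPKM at log2 -2.60 in the authors' deposited table, and its locus overlaps the gene AT2G29628. PWD (AT5G26570), a kinase that phosphorylates starch for its breakdown, had 5.44 FPKM at log2 -2.56 in the authors' deposited table. MYC3 (AT5G46760), a bHLH transcription factor of the jasmonate response, had 5.06 FPKM at log2 -2.74 in the authors' deposited table. GN (AT1G13980), also called GNOM, had 4.37 FPKM at log2 -2.68, and the lipoxygenase gene LOX1 had 4.22 FPKM at log2 -2.58, in the authors' deposited table. Only THIC, ChiC, PWD and MYC3 of all 158 members had 5 FPKM or more in the line.

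**Figure D3:**
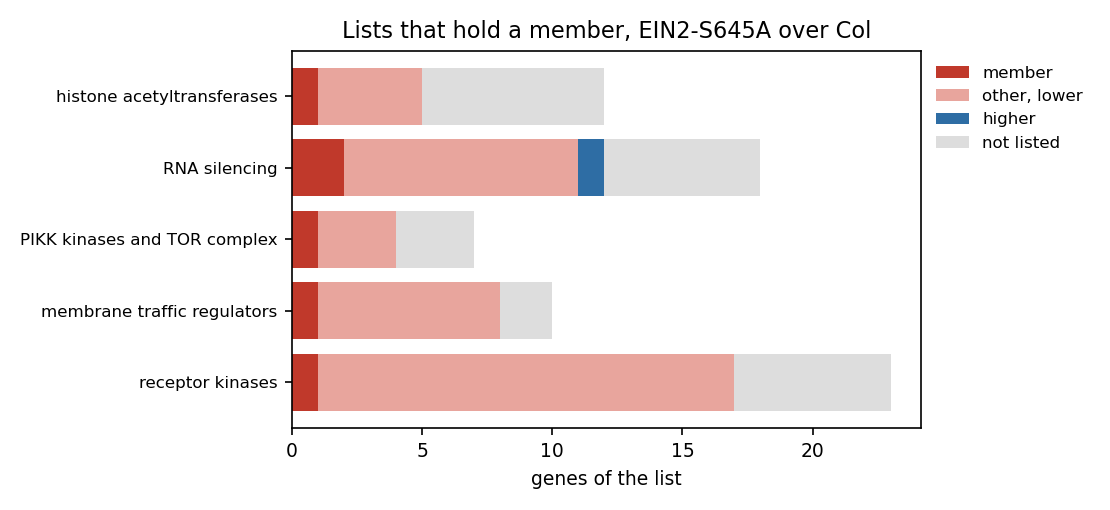
For each of the 5 gene lists that hold a member, the bar gives the number of list genes (x axis) that are members, otherwise lower, higher or not listed in EIN2-S645A against Col. The RNA silencing list holds 2 members and each of the other 4 holds 1, and the lower genes reach 17 of 23 among receptor kinases.

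Small RNA pathways supplied 2 members. Plants cut double-stranded RNA with Dicer-like enzymes, and the pieces guide Argonaute proteins to matching RNA or DNA. DCL4 (chromosome 5, 6859218 to 6869307), the Dicer that makes trans-acting small interfering RNAs, had 0.319 FPKM at log2 -3.59 (q = 0.000963), and HYL1, the double-stranded RNA binding partner of DCL1 in microRNA processing, had 0.664 FPKM at log2 -2.70 (q = 0.0226), in the authors' deposited table. Of 18 RNA silencing genes, 11 were lower, 1 was higher and 6 were not listed in EIN2-S645A, with a median log2 fold of -2.19 over those listed. The table lists 13.9% of all 27432 protein-coding nuclear genes as lower and 11.8% as higher. Such shares, here and for the lists below, count genes whether or not they were expressed. They were not matched for level or locus length. All lists were also written with earlier results of these data known, so their counts are a description only. The closest non-members were NRPD1B, the largest subunit of RNA polymerase V, at log2 -3.39, the RNA-dependent RNA polymerase genes RDR6 and RDR2 at -2.63 and -2.49, and DCL1, the microRNA Dicer, at -2.52 in the authors' deposited table. AGO4, an Argonaute of DNA methylation, was the 1 higher gene, at log2 1.65 in the authors' deposited table.

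The Col level implied by a gene's level and fold was lower in the EIN2-S645A table than in the EIN2C-EIN3DB table, by a median log2 difference of -0.36 over 3425 genes, and differed from the EIN2C-EIN3DB-K245N table by 0.04 over 2323 genes. For nearly all genes these differences lay between -0.365 and -0.363, and between 0.0437 and 0.0442. The offset is thus near constant, and the 3 comparisons appear to share 1 set of Col libraries, scaled separately in each. Their calls are therefore not independent, and those for the 18 genes are only set side by side. Whether the folds shift with the scale was not tested. In EIN2C-EIN3DB, 3 of the 18 were lower and 0 higher, where 9.7% of protein-coding nuclear genes were listed lower and 9.92% higher. In EIN2C-EIN3DB-K245N, 3 were lower and 0 higher, where 6.33% were listed lower and 6.41% higher. DCL4 and HYL1, as members, were fixed by the rule as lower in EIN2-S645A and absent from both fusion tables. Part of this contrast between lines thus comes from the selection. In the authors' deposited tables, RDR6 stood at log2 -1.82 in EIN2C-EIN3DB and -1.15 in EIN2C-EIN3DB-K245N. The authors' deposited tables give DCL1 at log2 -1.19 in EIN2C-EIN3DB and -1.39 in EIN2C-EIN3DB-K245N. The difference between lines was not tested, because no value per library is at hand.

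Members with a part in histone acetylation or deacetylation included HAC4 and SNL1. HAC4 (AT1G55970), a histone acetyltransferase of the p300/CBP type, had 0.285 FPKM at log2 -3.34 (q = 0.00411) in the authors' deposited table. Of 12 histone acetyltransferase genes, 5 were lower, 0 were higher and 7 were not listed in EIN2-S645A, where 13.9% of protein-coding nuclear genes were lower and 11.8% higher. Its relatives HAC5, HAC1 and HAC12 stood at log2 -2.52, -2.12 and -2.08 in EIN2-S645A, and at -1.10, -1.46 and -1.15 in EIN2C-EIN3DB, in the authors' deposited tables. In EIN2C-EIN3DB-K245N, the authors' deposited table lists 1 gene of the list, HAC5, at log2 -1.03. HAC4, as a member, is absent from both fusion tables by the rule. These acetyltransferase genes resemble each other in sequence, so their reads may be split unevenly. SNL1 (AT3G01320), a SIN3-like scaffold of histone deacetylase complexes, had 1.57 FPKM at log2 -2.51 in the authors' deposited table, which put it just inside the limit.

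The receptor kinase list held 1 member. BRL1, a brassinosteroid receptor close to BRI1, had 0.364 FPKM at log2 -2.74 (q = 0.0118) in the authors' deposited table. Of the 23 receptor kinase genes, 17 were lower and 0 higher in EIN2-S645A, where 13.9% of protein-coding nuclear genes were listed lower. In EIN2C-EIN3DB 5 were lower (9.7% of protein-coding nuclear genes) and in EIN2C-EIN3DB-K245N 3 were lower (6.33%), and the difference between lines was not tested. BRL1, as a member, had to be lower in EIN2-S645A and absent from both fusion tables, so these counts differ in part by the rule. BRI1 itself stood at log2 -1.97 with 24.7 FPKM in EIN2-S645A and at -1.61 in EIN2C-EIN3DB in the authors' deposited tables. Receptor kinase members outside the list, named here after their values were seen and only from genes with a symbol, included EMS1, which acts in anther cell fate, at log2 -2.80. MRLK, a receptor-like kinase named for the meristem, stood at -3.34, and CES101, another receptor-like kinase, at -2.76 in the authors' deposited table. Members without a symbol were not searched for receptor kinases. Also named after their values were seen, the immune receptor gene SNC1 stood at log2 -2.54, the ion channel gene CNGC12 at -2.65, the glutamate receptor gene GLR5 at -3.21 and the calcium-dependent kinase gene CPK31 at -2.90 in the authors' deposited table. SNC1 lies among close relatives, so its reads may be shared with them.

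The membrane traffic list also held 1 member. GN (GNOM), a guanine nucleotide exchange factor of vesicle traffic, was the 1 member of 10 membrane traffic regulators, of which 8 were lower and 0 higher in EIN2-S645A. In EIN2C-EIN3DB 2 of the 10 were lower and in EIN2C-EIN3DB-K245N 0 were. Over protein-coding nuclear genes, the shares listed lower were 13.9% in EIN2-S645A, 9.7% in EIN2C-EIN3DB and 6.33% in EIN2C-EIN3DB-K245N, and the difference between lines was not tested. The rule alone fixed this pattern of calls for the member GN. Its relative GNL1 stood at log2 -1.97 in EIN2-S645A and at -1.01 in EIN2C-EIN3DB in the authors' deposited tables. SAB (SABRE), which sets the direction of root cell expansion, had 1.53 FPKM at log2 -2.94 (q = 0.000224) in the authors' deposited table. Named after their values were seen, SPI (SPIRRIG), a BEACH domain protein of trichome and root hair growth, had 1.93 FPKM at log2 -2.60, and the phosphoinositide kinase gene FAB1D had 0.555 FPKM at log2 -2.98, in the authors' deposited table. The list of PIKK kinases and the TOR complex held 1 member of 7, AT4G36080, at log2 -2.57 in the authors' deposited table, with 4 genes lower and 0 higher in EIN2-S645A (13.9% and 11.8% of protein-coding nuclear genes) and 0 listed in either fusion line. For AT4G36080, being lower in EIN2-S645A and absent from both fusion tables was fixed by the rule.

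Other members with a symbol, also named after their values were seen, served DNA, RNA and metabolism. TIL1, the catalytic subunit of DNA polymerase epsilon, stood at log2 -2.54 and RPA70C, which binds single-stranded DNA, at -2.71 in the authors' deposited table. SAC3B, a homologue of the yeast messenger RNA export factor Sac3, stood at log2 -2.81 and EMB2730, an organelle ribonuclease, at -3.11 in the authors' deposited table. ALMT1, a malate channel of roots, stood at log2 -2.999, HA3, a plasma membrane proton pump, at -2.56, and XGD1, which adds xylose to pectin, at -2.51 in the authors' deposited table. CIB5, a bHLH protein that interacts with cryptochrome, stood at log2 -2.92 and AT2G43500 (NLP8, a NIN-like protein) at -2.68 in the authors' deposited table.

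The remaining 15 of the 20 lists held no member, among them ethylene signalling and EIN3 targets, whose lower genes in EIN2-S645A were 10 of 16 and 5 of 10, where 13.9% of protein-coding nuclear genes were lower. In EIN2C-EIN3DB the same lists had 9 of 16 and 8 of 10 lower (9.7% of protein-coding nuclear genes), and in EIN2C-EIN3DB-K245N 7 of 16 and 8 of 10 (6.33%). None of these genes could be a member where a fusion table lists it. The lists are selections, and members without a symbol, such as AT5G10120, were not systematically sorted into gene families. Members related to genes of these lists may therefore lie outside them.

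Of the 81 members listed at 0, those named here were picked from the genes with a symbol, after their values were seen. BIR6 and CRR4 encode organelle RNA proteins, needed for mitochondrial intron splicing and for plastid RNA editing. The transcription factor genes RAP2.6, MYB101, BPC7 and REM1 and the zinc finger gene PEI1 were listed at 0, as were the cytochrome P450 gene CYP71B10, CYP96A7 (annotated as a transcribed pseudogene), the stachyose synthase gene STS, the endonuclease gene ENDO3 and the methyl esterase gene MES6. The authors gave 50 of these 81 their smallest p-value of 5e-05, and 11 had a q-value over 0.01, in the authors' deposited table. Both microRNA genes of the set, MIR171b and MIR169m, were listed at 0, each with q = 0.0320 in the authors' deposited table, over loci of 117 and 212 bp. Mature microRNAs were not measured by this assay.

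Of the 158 members, 147 are protein-coding, 8 are pseudogenes, 2 are microRNA genes and 1 is a long noncoding RNA gene. The 8 pseudogenes and the 2 microRNA genes were all listed at 0, and 71 of the 81 members at 0 (87.7%) were protein-coding, against 76 of the 77 members with a value (98.7%) and 97.0% of all listed nuclear genes. A symbol other than the locus identifier was given in the annotation table to 20 members at 0 and to 34 with a value.

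Locus length was not used by the rule. Members with a value spanned a median of 3765 bp (quartiles 2508 and 5958 bp), close to the 3427.5 bp of the 1612 other genes lower in EIN2-S645A only and the 3315 bp of the 409 strongly lower genes with a value that a fusion table lists. Members at 0 spanned a median of 1236 bp (quartiles 756 and 1875 bp), close to the 1330.5 bp of the 60 genes at 0 that a fusion table lists. No member with a value was shorter than 1253 bp, whereas 32 members at 0 were under 1000 bp. Only 1 member at 0, STS with 3087 bp, was over 3000 bp. For contrast, the 173 genes with a log2 fold of 2.5 or more that were in neither fusion table spanned a median of 888 bp. Over all nuclear genes the median was 3195 bp for those lower and 1642.5 bp for those higher in EIN2-S645A. The part that transcript length or RNA quality may have in these folds was not tested.

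**Figure D4:**
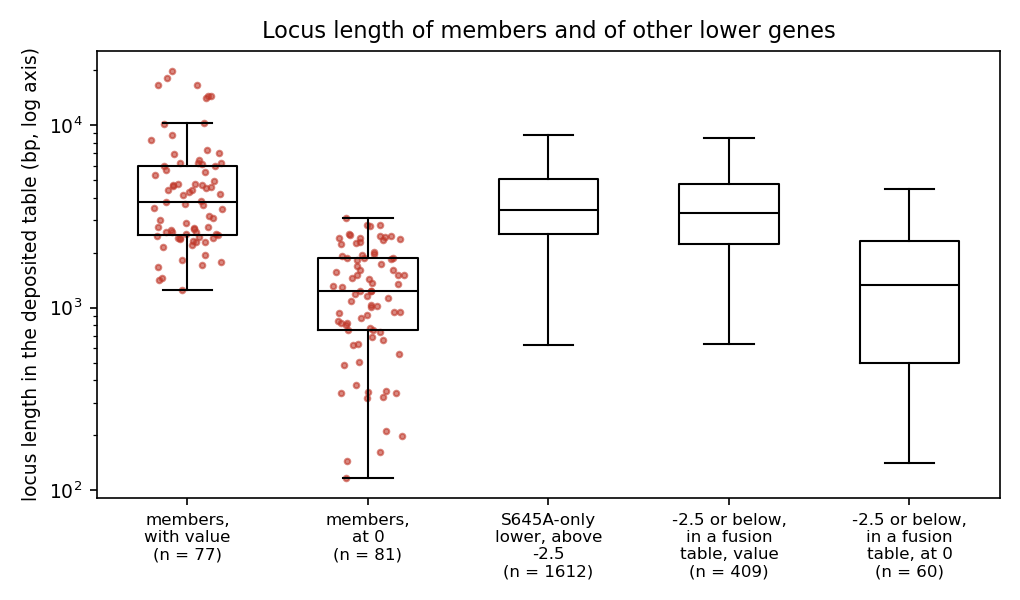
Locus length in bp on a log y axis for members with a value, members listed at 0 and 3 sets of other genes lower in EIN2-S645A, with boxes from the lower to the upper quartile, a line at the median, whiskers to the last value within 1.5 box heights and a red point for each member. Members with a value centre on 3765 bp and members at 0 on 1236 bp, with outlying genes of the other sets not drawn.

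The longest members were a small group of very large genes. All 9 loci over 10000 bp belonged to members with a value. They made up 5.70% of all members and 11.7% of the 77 with a value. Among the 1612 other genes lower in EIN2-S645A only, 48 were over 10000 bp (2.98%). Strongly lower genes with a value that a fusion table lists spanned up to 19352 bp, and their share over 10000 bp was not counted. Very long loci are thus not shown to be particular to the members. AT5G24740 (SHRUBBY, which interacts with the root regulator SHORT-ROOT) spanned 19753 bp and had 0.833 FPKM at log2 -2.67 in the authors' deposited table. AT4G36080 spanned 18184 bp, AT2G25730 16627 bp, TIL1 16564 bp, SAB 14480 bp, SPI 14419 bp, AT3G50380 14091 bp, EMB2788 10323 bp and DCL4 10090 bp. Their folds lay between log2 -3.59 in DCL4 and -2.54 in TIL1 in the authors' deposited table. EMB2788 had the lowest level of any member with a value, 0.176 FPKM in the authors' deposited table.

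Members were spread over all 5 chromosomes. Chromosome 1 held 40 (25.3%), chromosome 2 held 30 (19.0%), chromosome 3 held 28 (17.7%), chromosome 4 held 23 (14.6%) and chromosome 5 held 37 (23.4%). The nuclear genes listed lower in EIN2-S645A lay at 26.5%, 14.98%, 19.9%, 14.6% and 24.0% on these chromosomes. No members were next to each other in the order of protein-coding genes, and AT5G58660 and AT5G58680 had 1 gene between them. The deposited locus of 26 members, 14 with a value and 12 at 0, overlaps another annotated gene, whose reads cannot be told apart from theirs without strand information.

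At the edge of the rule, the members just inside were SNL1 at log2 -2.51, AT1G69290 at -2.51 and AT5G63830 at -2.502 in the authors' deposited table. The genes just outside were AT3G11490 at log2 -2.49 with 3.94 FPKM, AT3G30875 at -2.49 with 0.218 FPKM and the silencing gene RDR2 at -2.49 with 0.515 FPKM in the authors' deposited table.

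The EIN2 antibody ChIP was made from EIN2C-EIN3DB seedlings and not from EIN2-S645A seedlings. The antibody may also bind the plant's own EIN2, and no ChIP of seedlings without the fusion is at hand. Peaks of the fusion and of the plant's own EIN2 therefore cannot be told apart. The libraries kept between 3743192 tags (Col-0 air) and 10515608 tags (1 of the ein3-1 eil1-1 air libraries) after removal of duplicates, and the authors called peaks per library. Peaks in a locus, or no more than 1000 bp beyond either end of it, were assigned to that gene. In all, 15 of the 158 members had a peak in at least 1 of the 6 libraries (12 with a value and 3 at 0), and 11.1% of all listed nuclear genes did. In Col-0, 9 members had a peak in ethylene and 3 in air, against 7.4% and 4.59% of all listed nuclear genes, which are shares of 5.70% and 1.90% among members. In ein3-1 eil1-1, 1 member had a peak in each of the ethylene libraries, where 0.536% and 0.797% of listed genes did, and 1 in each of the air libraries, where 0.976% and 1.03% did. These were 4 different genes, and 0 members had a region found in both libraries of a treatment. No difference between members and all listed genes was tested, and nothing particular to the members is read from these shares.

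The peaks at members were mostly modest. The authors' fold enrichment over local input, a ratio, ran between 2.48 and 4.20 over the 18 peaks, and 2 of the 18 had a -log10 q of 5 or more. Both of those lay at AT5G57760, the member with the lowest fold. In Col-0 ethylene it had a peak at chr5:23400503-23400683 with a fold enrichment of 4.20 and a -log10 p of 9.29, just outside its start coordinate, and another at chr5:23401416-23402166 with a fold enrichment of 4.12 and a -log10 p of 8.54, in its locus. A weaker peak between them had a fold enrichment of 2.87. They ranked 239, 276 and 908 by p-value among the 1510 peaks of that library, and no peak was placed at the gene in the other 5 libraries.

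CYL1 (AT5G13690), an N-acetyl-glucosaminidase gene given as log2 -2.99 in the authors' deposited table, was the 1 member with a peak in 2 libraries. The Col-0 ethylene peak at chr5:4423782-4423872 had a fold enrichment of 2.48 and the Col-0 air peak at chr5:4423750-4423861 one of 3.13. These peaks overlap each other, and 2 other annotated genes are nearer to them than CYL1. At MYC3, the Col-0 ethylene library had a peak at chr5:18974051-18974167, 64 bp from the locus, with a fold enrichment of 3.02 and no other annotated gene within 1000 bp. At SAB, the Col-0 air library had a peak in the locus, at chr1:21600522-21600605, with a fold enrichment of 4.02. CNGC12 and AT5G49350 had Col-0 ethylene peaks with fold enrichments of 3.60 and 2.92, and AT5G10120 had an ein3-1 eil1-1 air peak with one of 2.64, each with another annotated gene nearer. Of the 18 peaks, 6 lay in the member's locus and 12 outside it, and for 10 another gene was nearer.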

How the data were processed

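FPKM values, log2 folds and p- and q-values were deposited by the authors, who used Cuffdiff 2.2.1 and the TAIR10 build according to the submitters' processing notes, as 1 pooled value per line. Pileup signal, fold enrichment (a ratio to input) and -log10 p and q values of peaks were deposited by the authors from MACS2 2.1.0.20150603 at p 0.001, 1 list per library, per the file headers. The RNA aligner and the role of BWA are not stated there. The 3 Col value columns were not used. A header line of each deposited peak list states that no q was computed, yet the -log10 q column holds values, which were read as named.

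The K245N table has the line first, so the sign of its folds was turned round. Locus starts were raised by 1 to count from 1. Members, lists (239 entries) and alternatives were chosen with earlier results of these data known. Named genes were the 12 lowest log2 folds with a value, the 6 highest levels, up to 6 with peaks in the most libraries (ties settled by number of peaks, then p, a choice made later), members in lists, and 3 either side of the limit; others are marked as chosen after their values were seen. All calls on RNA are the authors', and no test was run here, because replicates are pooled. All 158 members matched the annotation table (RefSeq, TAIR10.1), used for names, gene types and neighbours. Classes by annotation words, promoter motifs and protein length were planned and not used here, since that table holds no descriptions or sequences. Which of the 2 air ChIP lists in ein3-1 eil1-1 belongs to which replicate is not resolved, since both samples carry the same label. The input of Col-0 ethylene has an ein3-1 eil1-1 genotype label, and titles were followed. The member rule and peak placement were tested on simulated data. Python 3.11.15 and pandas 2.3.3 were used.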

Additional observations from a re-analysis of the deposited data

How the results depend on the processing

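The number of members was 158. It became 332 at a log2 limit of -2, 100 at -3, 283 when genes had to be absent from the EIN2C-EIN3DB-K245N table only, 35 at a level of at least 1 FPKM in the line and, in an alternative chosen after seeing the data, 77 without genes listed at 0. Absence from the EIN2C-EIN3DB table only, a q-value of at most 0.01 and keeping plastid and mitochondrial genes moved it by less than 1.5 times. The median locus of 2283.5 bp became 2736, 1508.5, 2508, 4566 and 3765 bp under those first 5 alternatives, in that order. The cause was not tested. The 15 members with a ChIP peak became 25, 5, 27 and 8 under the first 4 of them, and 12 without genes at 0. They became 5 with peaks in the locus only, 25 within 3000 bp, 1 with a -log10 q of at least 5 and 0 with regions found in both ein3-1 eil1-1 libraries. Adjacent pairs of members went to 1 with up to 1 gene between, against 0. No paired analysis was possible because the RNA values pool the replicates of each line, and leaving out a replicate was not possible for the same reason. Promoter motifs were not run. The RNA depth is unknown here, and most members lie under 1 FPKM or at 0, where 1 pooled value gives no error.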

Other observations

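In the same EIN2-S645A table, where 13.9% of protein-coding nuclear genes were listed lower and 11.8% higher, lists without a member also held lower genes. Of 27 genes of chromatin remodelling and of DNA or histone methylation, 21 were lower and 1 was higher, with PIE1 and INO80, both catalytic subunits of chromatin remodelling complexes, at log2 -3.30 and -3.01 and the DNA demethylase gene DML1 at -2.90 in the authors' deposited table. CMT3, a DNA methyltransferase gene, was higher, at log2 1.22 in the authors' deposited table. Of 7 HECT ubiquitin ligase genes, 6 were lower and 0 higher in EIN2-S645A, from UPL5 at log2 -1.88 to UPL6 at -1.36 in the authors' deposited table, and 0 of the 7 were listed in either fusion line. Other lists without a member varied widely. At the low end, 0 of 6 seed storage markers, 1 of 12 callose synthase genes and 2 of 13 cellulose synthesis genes were lower in EIN2-S645A. At the high end were 4 of 5 splicing and RNA surveillance genes and 2 of 2 dark-grown seedling markers. The shares over protein-coding nuclear genes were not matched for level or locus length.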
